A study of Mus musculus with 4 samples.

Results

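The 9 genes described here are the amyloid precursor gene App, the proteases Adam10 and Ide, and 6 genes linked to Alzheimer disease risk in people, Clu, Sorl1, Picalm, Bin1, Abca7 and Abi3. They were chosen by name, and all 9 are among the 16798 genes of the deposited count table. Immune cells carrying CD45, a surface protein of blood-derived cells and microglia, were sorted from mouse cortex at 18 months of age and profiled one by one with 10x Genomics 3′ chemistry. ADAM mice were APP/PS1 Axl-/- Mertk-/-, lacking both receptor tyrosine kinases, and AD mice were APP/PS1, with 2 libraries per genotype and 2 pooled cortices per library. Both genotypes thus carry APP/PS1, a transgenic amyloid model, and no library without it was analysed here. The sources used here give neither the promoter of the transgenes nor whether transcripts of a transgene were counted under App. With 2 libraries per genotype, p-values measure only the spread between these pools.

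App encodes the precursor that secretases cut into amyloid beta. Adam10 is an alpha-secretase, which cuts the precursor inside the amyloid beta stretch, and Ide (insulin-degrading enzyme) is a protease that breaks down free amyloid beta. Sorl1 is a sorting receptor that moves the precursor between endosomes and the Golgi, Picalm is an adaptor of clathrin-coated pits, and Bin1 binds and bends membranes in endocytosis. Clu (clusterin) is a secreted chaperone made by astrocytes and choroid plexus epithelium, among other cells, Abca7 is a lipid transporter of the ABCA family, and Abi3 is a subunit of a complex that drives actin branching, with high expression in microglia.

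The libraries held 3578 and 4089 cells in ADAM 1 and ADAM 2, against 3241 and 4543 cells in AD 1 and AD 2, with 14963857 to 29831947 UMIs (unique molecular identifiers, which count molecules) each. Levels below are CPM (counts scaled to the same total in each set of each library) of the UMIs summed over the cells of a set in 1 library, with sets taken from the authors' cell classes and numbered microglia states. Axl stood at 5.37 and 7.22 CPM in microglia of ADAM 1 and ADAM 2, against 104 and 67.1 CPM in AD 1 and AD 2. Mertk stood at 246 and 274 CPM in ADAM, against 274 and 296 CPM in AD, and the sources used here do not give its deleted part, so its 3′ counts do not check the label. A pair of libraries stood apart. ADAM 2 held neutrophil marker UMIs in microglia at 772 CPM and haemoglobin UMIs at 4498 CPM, against 14.8 to 53.7 CPM and at most 0.612 CPM in the other 3 libraries. AD 1 held 209 of the 216 cells marked by the authors as doublets of a microglia and a T cell, and these are left out below. Cell barcodes found in more than 1 library numbered 24. The 5 microglia markers were all detected in the microglia of each library, with sums of 12722 and 10044 CPM in ADAM 1 and ADAM 2, against 13073 and 12417 CPM in AD 1 and AD 2.

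The start regions of 4 of the genes are shown because Adam10, Picalm and Sorl1 had lower levels in microglia state 5 than in state 0 in all libraries, while App did not, as described below. RefSeq (GRCm38.p6) gave start regions for 6 of the 9 genes. Bin1 and Abi3, which were also lower in state 5 in all libraries, had none, and neither had Clu. Each sequence is the 250 bases before a start, 5′ to 3′ on the strand of the gene, and capitals mark the E-box CACGTG. They cover chr7:90129963-90130212 (plus strand) for Picalm, chr9:70678732-70678981 (plus) for Adam10, chr9:42124298-42124547 (minus) for the outer start of Sorl1 and chr16:85173708-85173957 (minus) for App.
Picalm: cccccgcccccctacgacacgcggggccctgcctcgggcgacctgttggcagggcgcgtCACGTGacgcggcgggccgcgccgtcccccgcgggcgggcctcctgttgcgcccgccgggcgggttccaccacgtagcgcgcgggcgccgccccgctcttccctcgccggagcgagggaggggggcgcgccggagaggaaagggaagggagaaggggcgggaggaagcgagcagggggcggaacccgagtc
Adam10: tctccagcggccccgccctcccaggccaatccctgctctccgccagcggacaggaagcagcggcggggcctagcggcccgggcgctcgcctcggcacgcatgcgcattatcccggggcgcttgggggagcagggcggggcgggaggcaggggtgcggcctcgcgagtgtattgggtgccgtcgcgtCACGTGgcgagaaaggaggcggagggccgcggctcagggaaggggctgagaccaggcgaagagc
Sorl1: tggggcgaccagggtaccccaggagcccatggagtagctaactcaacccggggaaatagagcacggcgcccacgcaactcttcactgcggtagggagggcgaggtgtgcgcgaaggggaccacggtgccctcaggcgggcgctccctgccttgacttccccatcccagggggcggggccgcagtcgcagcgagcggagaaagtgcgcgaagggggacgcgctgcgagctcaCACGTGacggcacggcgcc
App: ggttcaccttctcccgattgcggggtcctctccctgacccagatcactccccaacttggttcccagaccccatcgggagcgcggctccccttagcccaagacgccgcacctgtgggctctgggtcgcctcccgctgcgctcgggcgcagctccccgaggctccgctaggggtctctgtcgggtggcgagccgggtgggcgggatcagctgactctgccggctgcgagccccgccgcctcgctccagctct
The CACGTG motif, which reads the same on both strands, occurred once each in the Picalm, Adam10 and outer Sorl1 regions. It was not in the regions of App, Abca7, the inner start of Sorl1 or the start given for Ide. That Ide region (chr19:37334545-37334794, minus) lies inside the gene, so the outer start of Ide was not searched. The motif occurred in 6.02% of 32851 start regions of the same length. The PU.1 motif searched, GAGGAAGT with its reverse complement ACTTCCTC, was in none of the 6 genes and in 2.44% of all regions. The Picalm, Adam10 and outer Sorl1 regions held 39, 29 and 26 CpG (C followed by G). App held 23, Abca7 12, the inner Sorl1 start 9 and Ide 0, beside a median of 6 over all regions. The motif holds a CpG itself, and the 6.02% is not matched for CpG content. A match of letters is a description of the sequence and does not show binding.

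In the GENCODE vM21 annotation of GRCm38, Picalm (chromosome 7, 90130213 to 90213465, plus strand) is the only one of the 9 genes on a chromosome of Axl or Mertk, 64.3 megabases from Axl. App spans chromosome 16, 84949685 to 85173766, minus strand, Adam10 chromosome 9, 70678997 to 70780229, plus strand, Ide chromosome 19, 37268743 to 37337852, minus strand, and Sorl1 chromosome 9, 41964720 to 42124297, minus strand. Clu spans chromosome 14, 65968483 to 65981547, plus strand, Bin1 chromosome 18, 32377230 to 32435737, plus strand, Abca7 chromosome 10, 79996494 to 80015572, plus strand, and Abi3 chromosome 11, 95830074 to 95842476, minus strand. Exons of Abi3 overlap exons of Zfp652 on the opposite strand over 2913 bases and of Gngt2 over 234 bases. The sources used here do not say whether the counting used strand, so the Abi3 values are uncertain where they could include those reads.

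The first comparison was between cell types. The cell sets come from the authors' clustering of the same cells, so differences between sets are described with no test, on log2(CPM + 1) within each library, as mean ± SD over 4 libraries. App was found in all myeloid sets and was near 0 in T and NK cells. In T and NK cells it had 9.06 and 8.55 CPM in ADAM 1 and ADAM 2, against 8.34 and 7.29 CPM in AD 1 and AD 2. In microglia it had 183 and 179 CPM in ADAM, against 167 and 174 CPM in AD, so the log2 difference of T and NK cells from microglia was −4.25 ± 0.10. Every library kept this order, and the sets did not overlap. App in monocytes (227 ± 46.3 CPM), state 2 (225 ± 60.2 CPM), macrophages (184 ± 58.7 CPM) and states 5 and 0 overlapped in range, so no order among them stands beyond the spread.

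At equal depth of 2000 UMIs per cell, 27.6% and 28.4% of microglia had an App UMI in ADAM 1 and ADAM 2, against 25.8% and 27.5% in AD 1 and AD 2. T and NK cells, a cell type used here as the background for App, had 1.81% and 1.22% in ADAM, against 1.28% and 1.19% in AD. Without thinning the microglial shares were 58.1% and 56.9% in ADAM, against 51.6% and 61.1% in AD, at median depths of 5472 and 5698.5 UMIs in ADAM, against 4719.5 and 6170.0 UMIs in AD. T and NK cells without thinning had 3.1% and 2.99% in ADAM, against 2.35% and 2.78% in AD, at medians of 3406 and 3416 UMIs in ADAM, against 2925.5 and 3547.5 UMIs in AD. The microglial shares lay far above the T and NK shares in each library at both depths.

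The 23 sorted oligodendrocytes and 40 endothelial cells carried more App per UMI than any immune set with counts from at least 20 cells per library. Pooled over the libraries, which differed in cell number, App was 2936 CPM (2641 to 3255) in oligodendrocytes and 1420.1 CPM (1275 to 1577) in endothelial cells, with exact 95% Poisson intervals that cover counting error only. These cells numbered as few as 3 in a library, so no genotype comparison was made in them. Their own defining markers were present in each library, with endothelial marker sums of 11757 to 13024 CPM in endothelial cells and oligodendrocyte marker sums of 23303 to 33939 CPM in oligodendrocytes. Bin1 was 892 CPM (733 to 1075) in oligodendrocytes and 12.2 CPM (2.51 to 35.6) in endothelial cells. Neutrophils, of which ADAM 1 held 11 and ADAM 2 held 580, against 30 in AD 1 and 136 in AD 2, had App at 309.5 and 206 CPM in ADAM, against 174 and 143 CPM in AD, and Picalm pooled at 409.9 CPM (385 to 436). Abi3 had no UMI in the oligodendrocytes, which allows up to 29.9 CPM by the same interval.

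Among the 9 sets with at least 20 cells in every library, the mean of Adam10 was highest in state 0, at 143 to 170.2 CPM, overlapping state 2 (99.1 to 205 CPM). Monocytes had 68.8 to 85.4 CPM, and T and NK cells had 27.1 to 46.04 CPM, the lowest of the 9, with no overlap with state 5, the next one up. Relative to microglia the log2 difference was −0.56 ± 0.036 in monocytes and −1.64 ± 0.22 in T and NK cells. Ide, the amyloid beta protease, was detected in every library of those 9 sets, T and NK cells included. It had 34.98 ± 10.9 CPM in T and NK cells and 14.03 ± 5.21 CPM in monocytes, against 15.1 to 30.4 CPM in microglia. The log2 difference from microglia was 0.46 ± 0.16 in T and NK cells and −0.82 ± 0.17 in monocytes, each in the same direction in all 4 libraries. No neighbouring pair among these sets in the order of Ide levels was free of overlap.

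Sorl1 and Abca7 had their highest levels outside the microglia. Sorl1 had 123 and 205 CPM in ADAM 1 and ADAM 2, against 109 and 140.4 CPM in AD 1 and AD 2, in monocytes. In microglia it had 26.7 and 33.5 CPM in ADAM, against 22.1 and 29.7 CPM in AD, so the monocyte level was higher by 2.30 ± 0.19 on the log2 scale. Among the 9 sets with at least 20 cells per library, monocytes and T and NK cells (79.6 to 102 CPM) ranked first and second without overlapping, and state 5 was the lowest at 16.01 to 18.6 CPM. Neutrophils held 370.4 CPM (346 to 396) pooled, most of them from ADAM 2. Abca7 had 39.5 and 38.01 CPM in ADAM 1 and ADAM 2, against 27.7 and 40.6 CPM in AD 1 and AD 2, in monocytes, a log2 difference of 1.74 ± 0.33 from microglia (8.91 to 11.5 CPM). The monocyte range lay above that of every other set with at least 20 cells per library. Monocytes also held neutrophil markers at 4166 and 70160.5 CPM in ADAM 1 and ADAM 2, against 77.3 and 1963 CPM in AD 1 and AD 2, so ADAM 2 monocytes stood apart. In AD 1, whose monocytes held the least of these markers, Sorl1 was 109 CPM in monocytes and 22.1 CPM in microglia, and Abca7 was 27.7 CPM in monocytes and 10.6 CPM in microglia.

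Bin1, Picalm and Abi3 ran the other way, with their levels lower in T and NK cells and monocytes than in microglia. Bin1 had 52.3 and 26.9 CPM in ADAM 1 and ADAM 2, against 29.7 and 59.2 CPM in AD 1 and AD 2, in monocytes. In state 0 of the microglia it had 660.0 and 464 CPM in ADAM, against 668 and 682 CPM in AD, above each of the other 8 sets with at least 20 cells per library, with no overlap. The log2 difference from all microglia was −3.43 ± 0.29 in monocytes and −2.68 ± 0.36 in T and NK cells. Picalm was −2.23 ± 0.25 in T and NK cells and −0.48 ± 0.18 in monocytes on the same scale, and Abi3 was −1.93 ± 0.23 and −0.52 ± 0.23. Among those 9 sets Abi3 was also highest in state 0 (282 to 327 CPM), with no overlap with state 5 (159 to 204 CPM), the next of them. In macrophages of the brain Abi3 was −1.44 ± 0.41 against microglia, Bin1 −0.70 ± 0.14, Adam10 −0.47 ± 0.31 and Picalm −0.38 ± 0.23, lower in all 4 libraries.

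Counted over the 9 genes, monocytes were lower than microglia in all 4 libraries for 6 and higher for 2, where 40.5% of 9831 genes were lower and 26.9% higher in the same sense. The 6 include Clu, which was near the floor, with 1 and 0 UMIs in monocytes of ADAM 1 and ADAM 2, against 3 and 0 in AD 1 and AD 2. Clu met the level of 5 CPM needed for this count only through microglia, at a mean of 7.75 CPM. Outside state 2 the microglia had 1.34 to 2.48 CPM, so the place of Clu among the 6 is not read as a difference. T and NK cells were lower for 5 and higher for 2, against 41.9% and 39.7% of 10130 genes. Macrophages were lower for 4 and higher for none, against 19.8% and 20.8% of 9974 genes. The median log2 difference over the 9 genes was −0.52 in monocytes, −1.93 in T and NK cells and −0.38 in macrophages, beside −0.22, −0.016 and −0.0046 over all genes compared. In bulk sums of a set, fewer cells with a transcript and fewer transcripts per cell cannot be told apart.

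**Figure D1:**
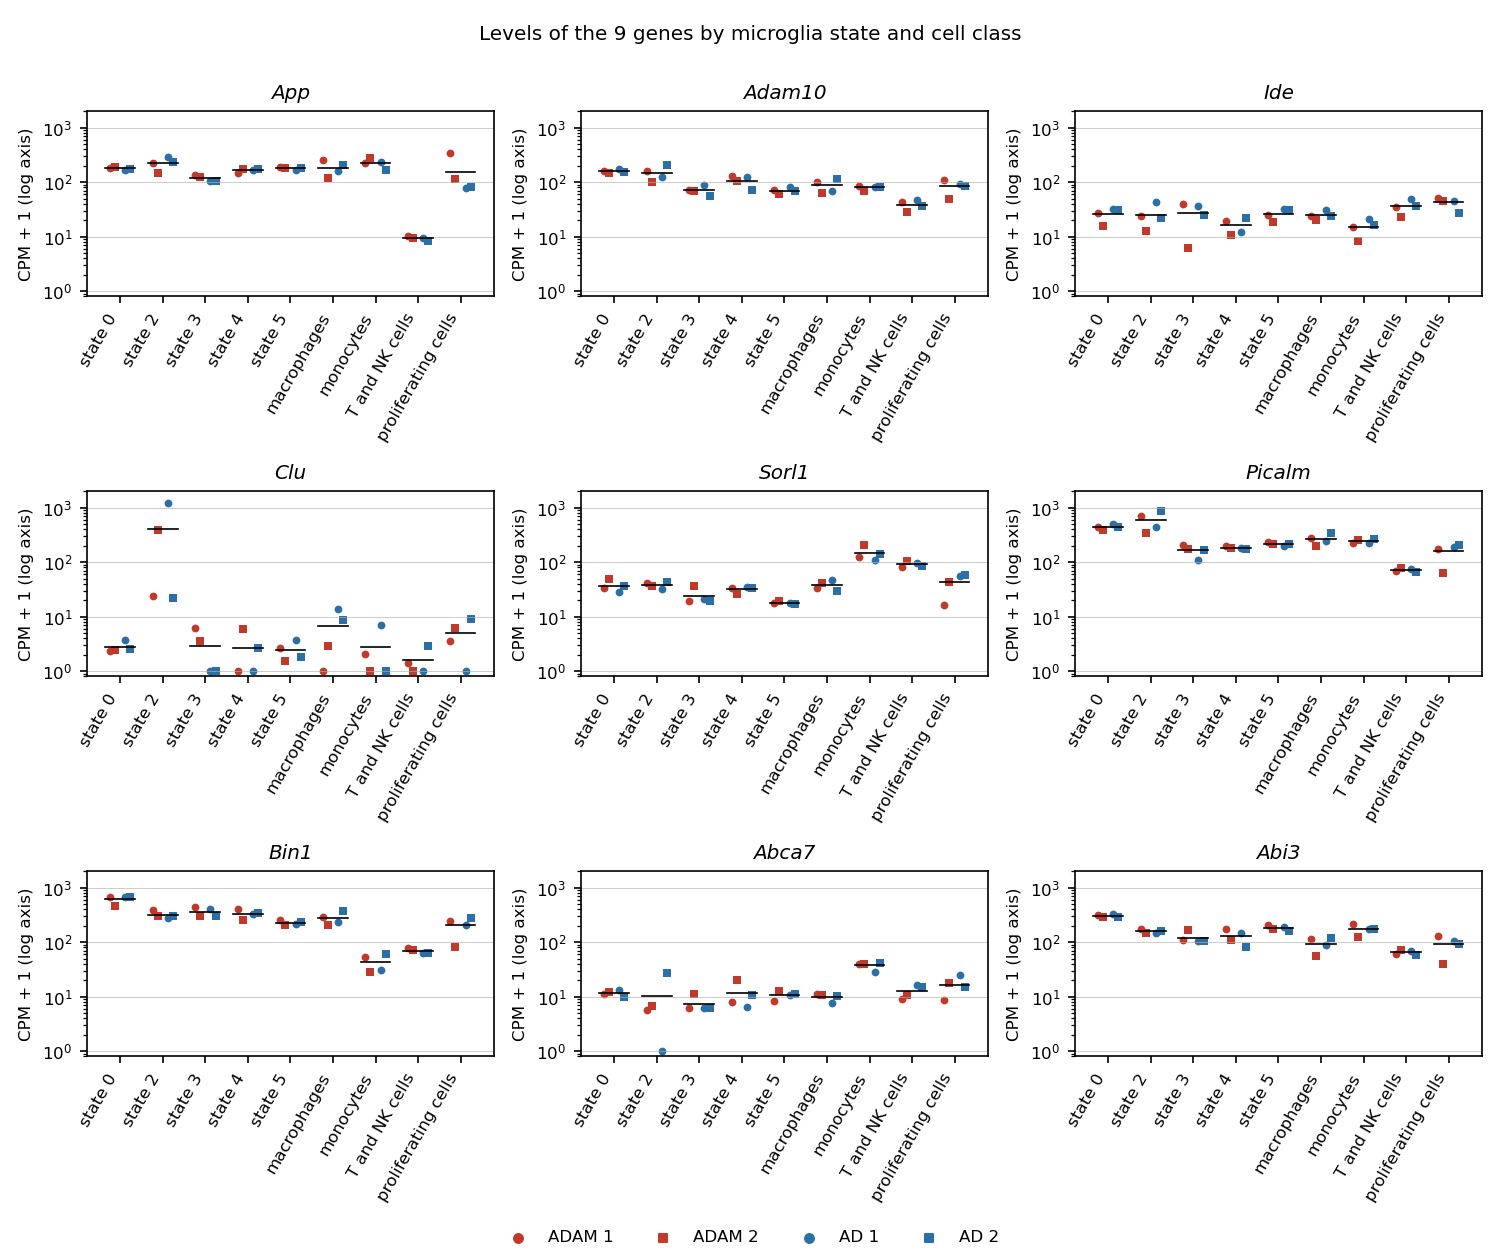
Level of each gene (CPM + 1, log axis) in 9 cell sets with at least 20 cells in every library, by library (red ADAM, blue AD, circles replicate 1, squares replicate 2), with a line at the mean of 4 libraries. App lies at 7.29 to 9.06 CPM in T and NK cells, Sorl1 and Abca7 peak in monocytes, Bin1 is lowest in monocytes, and Clu stands at 382 CPM in state 2 of ADAM 2 and 1219 CPM in state 2 of AD 1.

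Within microglia, the next comparison set state 5, the second most abundant state, against state 0. The alpha-secretase Adam10 was lower in state 5 by more than most genes. It had 69.3 and 59.1 CPM in ADAM 1 and ADAM 2, against 78.9 and 66.3 CPM in AD 1 and AD 2, in state 5. In state 0 it had 158 and 143 CPM in ADAM, against 170.2 and 152 CPM in AD, and the log2 difference was −1.18 ± 0.068. All 4 libraries of state 5 lay below all 4 of state 0. The substrate gene App did not follow, with 169 to 190.2 CPM in state 5 and 169 to 192 CPM in state 0, a log2 difference of 0.0098 ± 0.081 with 2 libraries up and 2 down.

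Both endocytic genes were lower in state 5 as well. Picalm had 193 to 238 CPM in state 5, against 387 to 492 CPM in state 0, a log2 difference of −1.02 ± 0.23. Bin1 had 201 to 257 CPM in state 5, against 464 to 682 CPM in state 0, a log2 difference of −1.44 ± 0.20. For both genes all 4 libraries of state 5 lay below all 4 of state 0. Sorl1 had 16.01 to 18.6 CPM in state 5, against 26.8 to 48.5 CPM in state 0 (−0.999 ± 0.30), and Abi3 had 159 to 204 CPM, against 282 to 327 CPM (−0.75 ± 0.11). Ide (0.023 ± 0.14) and Abca7 (−0.13 ± 0.29) had 2 libraries up and 2 down.

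Read against all genes, 5 of the 8 genes with enough UMIs were lower in state 5 in all 4 libraries and 0 were higher, where 60.2% of 9546 genes were lower and 17.8% higher, so the count itself lies near the background. The median log2 difference was −0.87 over the 8 genes and −0.34 over all genes. Relative to that median, Bin1 was at −1.09, Adam10 −0.84, Picalm −0.68, Sorl1 −0.66 and Abi3 −0.41. By size of the difference, 4.45% of genes lay below Bin1, 6.99% below Adam10, 9.49% below Picalm, 10.04% below Sorl1 and 18.1% below Abi3. App, Ide and Abca7 lay above 75.6%, 76.3% and 67.3% of genes. Clu had too few UMIs outside state 2 for this comparison. The summed microglia markers were also lower in state 5, at 8038 to 10431 CPM, against 12824 to 16752 CPM in state 0, and state 5 cells were deeper, with medians of 6200.5 to 7883 UMIs, against 4145 to 5904.5 UMIs in state 0. The part of either in these differences was not tested.

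**Figure D2:**
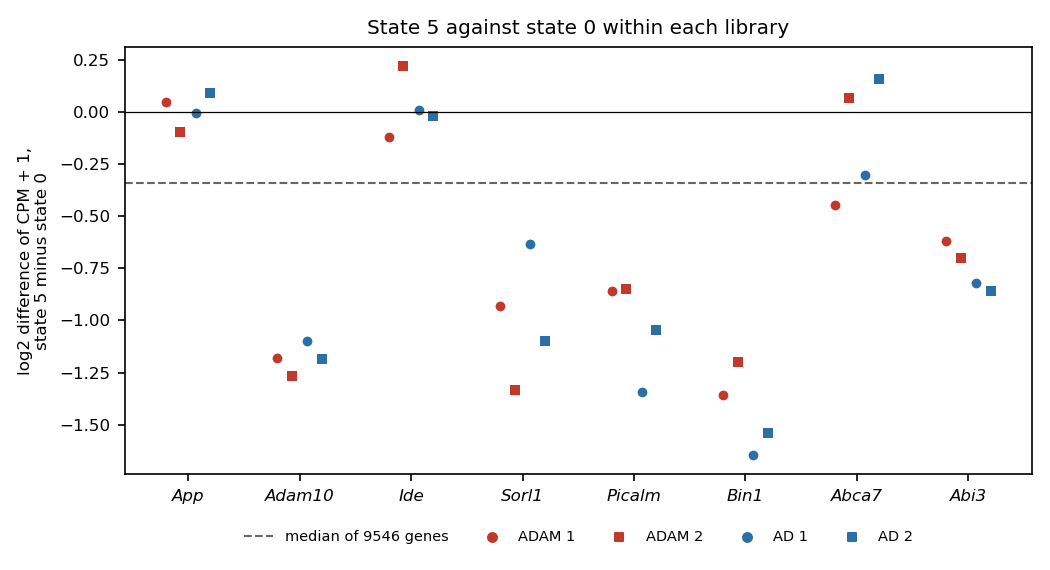
Log2 difference of CPM + 1, state 5 minus state 0, within each library for the 8 genes with enough UMIs (red ADAM, blue AD, circles replicate 1, squares replicate 2). The dashed line is the median of 9546 genes, and Adam10, Picalm, Bin1, Sorl1 and Abi3 lie below it in all 4 libraries while App stays within 0.097 of 0.

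The smaller states also differed from state 0, in part for the same genes. Adam10, Picalm, Bin1 and Abi3, lower in state 5, were lower in all 4 libraries in states 3 and 4 too. On the log2 scale Bin1 was −0.78 ± 0.28 in state 3 and −0.91 ± 0.16 in state 4, and Adam10 was −0.58 ± 0.33 in state 4. State 2 was lower than state 0 in all 4 libraries for Bin1 (−0.97 ± 0.29) and Abi3 (−0.95 ± 0.14), 2 of 9 genes beside 20.7% of 10536 genes. It was higher for Clu, 1 of 9, beside 13% of genes. Clu met the floor of 5 CPM in either set only through state 2, at a mean of 411 CPM against 1.75 CPM in state 0. Its place in this count was thus set by its high level there, and nothing is read from it. Picalm spread widely there, over 335 to 852 CPM. In state 3, Picalm was −1.45 ± 0.52, Abi3 −1.36 ± 0.39, Adam10 −1.16 ± 0.20 and App −0.63 ± 0.13 against state 0, where the median of all genes was −1.03 and 63.4% of 9369 genes were lower in all 4 libraries. There 7 of 8 members were lower in all 4 libraries and 0 higher, beside 7.36% of genes higher, with a median over the 8 of −0.73. The 7 include 2 genes with few UMIs in state 3. Abca7 had 2 and 4 UMIs in ADAM 1 and ADAM 2, against 1 and 2 in AD 1 and AD 2. Sorl1 had 7 and 14 UMIs in ADAM, against 4 and 7 in AD. In state 4, 5 of 8 were lower and 0 higher, beside 34.9% and 12.1% of 9589 genes, and the largest of the 8 differences were those of Abi3 at −1.31 ± 0.40 and Picalm at −1.25 ± 0.17, beside a median of −0.40. Ide was also lower there in all 4 libraries, with a log2 difference of −0.73 ± 0.45 and a level of 15.1 ± 5.57 CPM. That rests on few UMIs in state 4, 8 and 2 in ADAM 1 and ADAM 2, against 2 and 13 in AD 1 and AD 2. State 4 holds 23 to 62 cells per library and state 3 holds 69 to 112.

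Clu, the secreted chaperone, was close to absent from most sets and concentrated in state 2 of the microglia in a pair of libraries. State 2 cells were shallow, with median depths of 818 and 865 UMIs in ADAM 1 and ADAM 2, against 808.5 and 886.5 UMIs in AD 1 and AD 2. Clu in state 2 had 22.9 and 382 CPM in ADAM 1 and ADAM 2, against 1219 and 21.05 CPM in AD 1 and AD 2. The genotypes overlapped, with 1 high and 1 low library in each. The few oligodendrocytes held 251 CPM (171 to 357) pooled, with 28 of the 31 UMIs in ADAM 1. In the microglia outside state 2 it had 1.52 and 1.34 CPM in ADAM 1 and ADAM 2, against 2.48 and 1.53 CPM in AD 1 and AD 2.

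Most of these UMIs came from 6 cells. In ADAM 2, 131 of the 148 microglial Clu UMIs (88.5%) lay in state 2, which held 11.8% of its microglia. In AD 1, 117 of 138 (84.8%) lay in state 2, with 4.88% of its microglia. In ADAM 2, 4 cells with 43, 35, 26 and 14 Clu UMIs held 118 of the 131, and in AD 1, 2 cells with 63 and 41 held 104 of the 117. The AD 1 cell with 63 carried 5932 UMIs of choroid plexus markers among its 10575 UMIs, and the one with 41 carried 54 UMIs of astrocyte markers. Among the ADAM 2 cells, those with 43 and 26 carried 70 and 74 astrocyte marker UMIs, and those with 35 and 14 carried neither kind. Without the 6 cells, Clu in state 2 was 22.9 and 40.3 CPM in ADAM 1 and ADAM 2, against 159.7 and 21.0 CPM in AD 1 and AD 2.

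Over all of state 2 the astrocyte marker sum of Aqp4, Gfap, Slc1a2, Slc1a3, Aldoc and Gja1 was 321 and 805 CPM in ADAM 1 and ADAM 2, against 2239 and 237 CPM in AD 1 and AD 2. The choroid plexus sum of Ttr, Folr1, Kl, Enpp2 and Kcnj13 was 9.16 and 1621 CPM in ADAM 1 and ADAM 2, against 61826 and 15.8 CPM in AD 1 and AD 2. Both sums were higher in ADAM 2 and AD 1 than in the other libraries, as Clu was. The choroid plexus sum came mostly from 1 cell in each of these 2 libraries. In AD 1 that cell held 5932 marker UMIs and 63 Clu UMIs, against 4 marker UMIs in the other 77 cells. In ADAM 2 it held 486 marker UMIs but only 2 Clu UMIs, against 70 marker UMIs in the other 243 cells. The part of these cell types in the Clu level was not tested beyond the cells counted above. The Clu genotype fold over all microglia had an interval from −6.90 to 6.43 on the log2 scale, so no size of difference could be read from it.

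**Figure D3:**
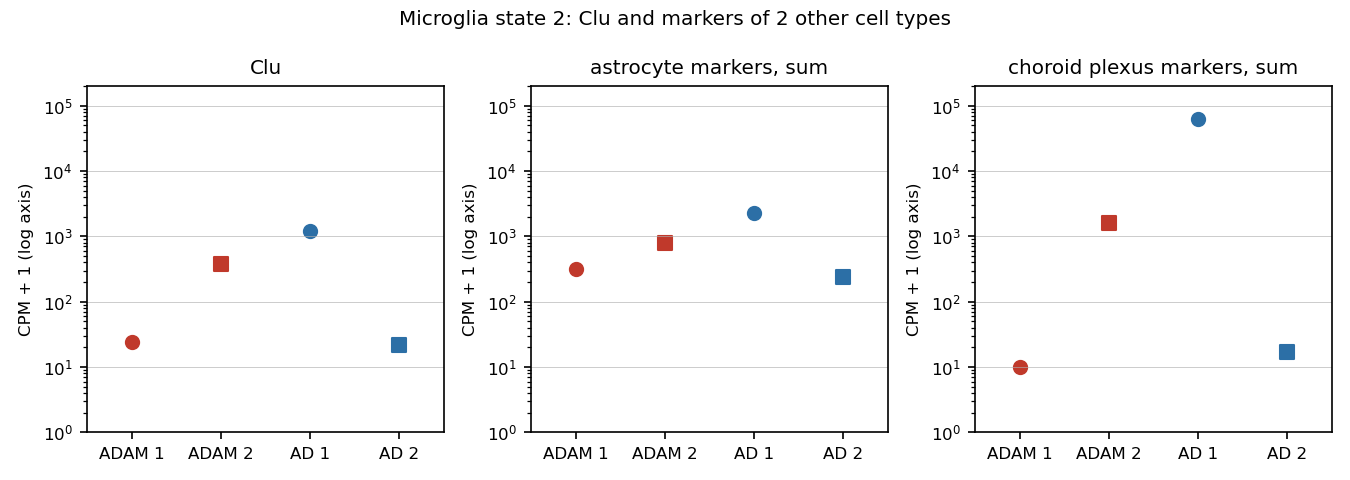
Level in microglia state 2 (CPM + 1, log axis) of Clu, of the summed astrocyte markers and of the summed choroid plexus markers, by library (red ADAM, blue AD). ADAM 2 and AD 1 are the high libraries in all 3 panels, with Clu at 382 and 1219 CPM. The choroid plexus sum of each came mostly from 1 cell, which in ADAM 2 held only 2 Clu UMIs.

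The genotypes were then compared to ask whether loss of both receptors went with a change in these genes. None of the 9 passed in any of the 8 cell sets tested with the edgeR quasi-likelihood test at an adjusted p under 0.05. The sets were all microglia, states 0, 3, 4 and 5, macrophages, monocytes, and T and NK cells. In microglia 0 of 9 were called, where 5 of 11924 genes (0.0419%) were, and 0 of 9 had an unadjusted p under 0.05, where 2.35% of genes did. Over all sets, the members at an unadjusted p under 0.05 were Ide in state 5 (1 of 8, beside 5.3% of genes), and Ide and Abca7 in T and NK cells (2 of 8, beside 5.2%). None was in state 0 (4.22% of genes), state 3 (4.95%), state 4 (3.35%), macrophages (2.21%) or monocytes (8.51%). The shares of all genes called were 0.101% in state 0, 0.313% in state 3, 0.127% in state 4, 0.153% in state 5, 0.0154% in macrophages, 0.155% in monocytes and 0.241% in T and NK cells. DESeq2 and limma-voom also called none of the 9.

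Ide was the member with the lowest p. In microglia it had 25.1 and 15.1 CPM in ADAM 1 and ADAM 2, against 30.4 and 29.3 CPM in AD 1 and AD 2. Both ADAM libraries lay below both AD libraries, with ADAM 2 the lowest. The edgeR log2 fold was −0.51 (SE 0.22, 95% interval −1.04 to 0.017), with an unadjusted p of 0.056 and an adjusted p of 0.9999. In state 5 Ide had 23.96 and 17.5 CPM in ADAM, against 31.3 and 29.4 CPM in AD, again without overlap, and the log2 fold was −0.56 (SE 0.17, 95% interval −0.92 to −0.20). There the unadjusted p was 0.0046 and the edgeR adjusted p 0.47. In T and NK cells Ide had 34.7 and 21.6 CPM in ADAM, against 48.2 and 35.5 CPM in AD, a log2 fold of −0.57 (SE 0.23, 95% interval −1.07 to −0.071) and an edgeR adjusted p of 0.86.

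State 0 gave a log2 fold for Ide of −0.46 (SE 0.22), monocytes −0.77 (SE 0.49), macrophages −0.23 (SE 0.44) and state 3 −0.36 (SE 0.63). State 4 had too few Ide UMIs to test. The fold was negative in all 7 sets in which Ide was tested, but these share their 4 libraries, and microglia include the states. The low level was mostly that of ADAM 2. Without ADAM 1, edgeR called Ide lower in microglia (log2 fold −0.89, adjusted p 0.0054), state 0 (−0.93, 0.015) and state 5 (−0.79, 0.0055), with ADAM 2 standing alone for its genotype and assumed to vary like the AD libraries. Without ADAM 2 the fold in microglia was −0.22. ADAM 2 is also the library with neutrophil and haemoglobin UMIs in microglia, and their part in its Ide level was not tested.

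**Figure D4:**
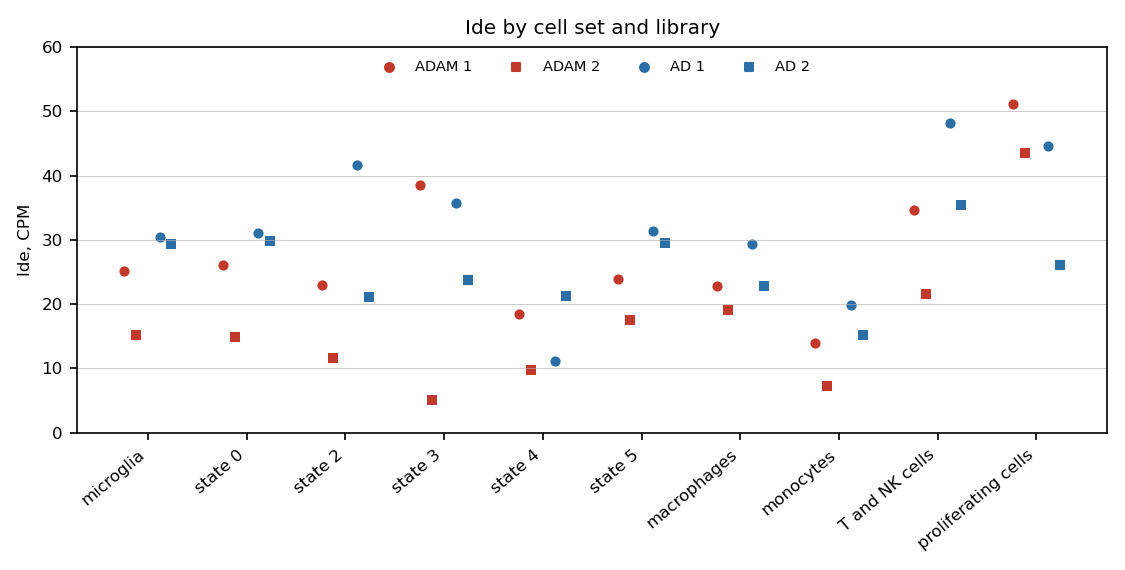
Ide level (CPM) by cell set and library (red ADAM, blue AD, circles replicate 1, squares replicate 2). Both ADAM libraries lie below both AD libraries in microglia, states 0 and 5, monocytes, and T and NK cells, and ADAM 2 is the lowest library in all sets but the proliferating cells.

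App, the amyloid precursor gene, was slightly higher in both ADAM libraries of microglia, by less than the test could call. The log2 fold was 0.14 (SE 0.11, 95% interval −0.12 to 0.40) in microglia and 0.23 (SE 0.11, 95% interval −0.0076 to 0.46) in state 0, where App had 184 and 192 CPM in ADAM, against 169 and 170.3 CPM in AD. An App increase in microglia above 0.40 on the log2 scale lies outside the interval. In state 5 the App libraries overlapped, with a log2 fold of 0.068 (SE 0.11, 95% interval −0.16 to 0.29). Adam10 overlapped between the genotypes in microglia, with 125 and 99.4 CPM in ADAM 1 and ADAM 2, against 120.4 and 124 CPM in AD 1 and AD 2. Its log2 fold was −0.072 (SE 0.13, 95% interval −0.36 to 0.22).

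Among the endocytic genes, Sorl1 had 26.7 and 33.5 CPM in ADAM 1 and ADAM 2, against 22.1 and 29.7 CPM in AD 1 and AD 2, overlapping in microglia, with a log2 fold of 0.26 (SE 0.18, 95% interval −0.17 to 0.68). Picalm had 357 and 297 CPM in ADAM 1 and ADAM 2, against 329 and 364 CPM in AD 1 and AD 2, and the libraries overlapped. Its log2 fold was −0.032 (SE 0.13, 95% interval −0.33 to 0.27). Bin1 had 505 and 327 CPM in ADAM 1 and ADAM 2, against 423 and 530.0 CPM in AD 1 and AD 2, with ADAM 2 the lowest and a log2 fold of −0.14 (SE 0.21, 95% interval −0.64 to 0.35). In state 0 both ADAM libraries lay below both AD libraries for Bin1, at 660.0 and 464 CPM in ADAM, against 668 and 682 CPM in AD, a log2 fold of −0.18 (SE 0.16, 95% interval −0.53 to 0.16). None of the 3 genes had an unadjusted p under 0.05 in any set.

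Abca7 and Abi3 overlapped between the genotypes in microglia. Abca7 had 8.91 and 11.5 CPM in ADAM 1 and ADAM 2, against 10.6 and 9.58 CPM in AD 1 and AD 2, a log2 fold of 0.079 (SE 0.19, 95% interval −0.35 to 0.51). Abi3 had 265 and 224 CPM in ADAM 1 and ADAM 2, against 245 and 242 CPM in AD 1 and AD 2, a log2 fold of 0.060 (SE 0.12, 95% interval −0.23 to 0.35). In T and NK cells Abca7 was lower in both ADAM libraries, with 7.88 and 9.66 CPM in ADAM, against 15.5 and 14.3 CPM in AD. The log2 fold was −0.74 (SE 0.27, 95% interval −1.32 to −0.17), with an unadjusted p of 0.015 and an edgeR adjusted p of 0.76, so it did not pass.

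In microglia the libraries of the genotypes did not overlap for 2 of the 9 genes (App and Ide), beside 28.5% of all genes tested. The counts were 5 of 9 in state 0 (36.6% of genes), 3 of 6 in state 3 (32.6%), 2 of 6 in state 4 (30.4%) and 2 of 8 in state 5 (33.7%). They were 0 of 7 in macrophages (29.3%), 1 of 8 in monocytes (35.6%) and 4 of 8 in T and NK cells (32.9%). The median log2 fold over the 9 genes was −0.032 in microglia and −0.0086 in state 0, beside 0.0035 and 0.0060 over all genes tested. Over the 6 genes tested it was 0.22 in state 3 and 0.023 in state 4, beside 0.012 and 7.6e-05. Over the 7 tested in macrophages it was −0.23, beside −0.0054. Over the 8 tested it was 0.047 in state 5, −0.0062 in monocytes and 0.042 in T and NK cells, beside 0.00099, 0.00031 and −0.0056.

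**Figure D5:**
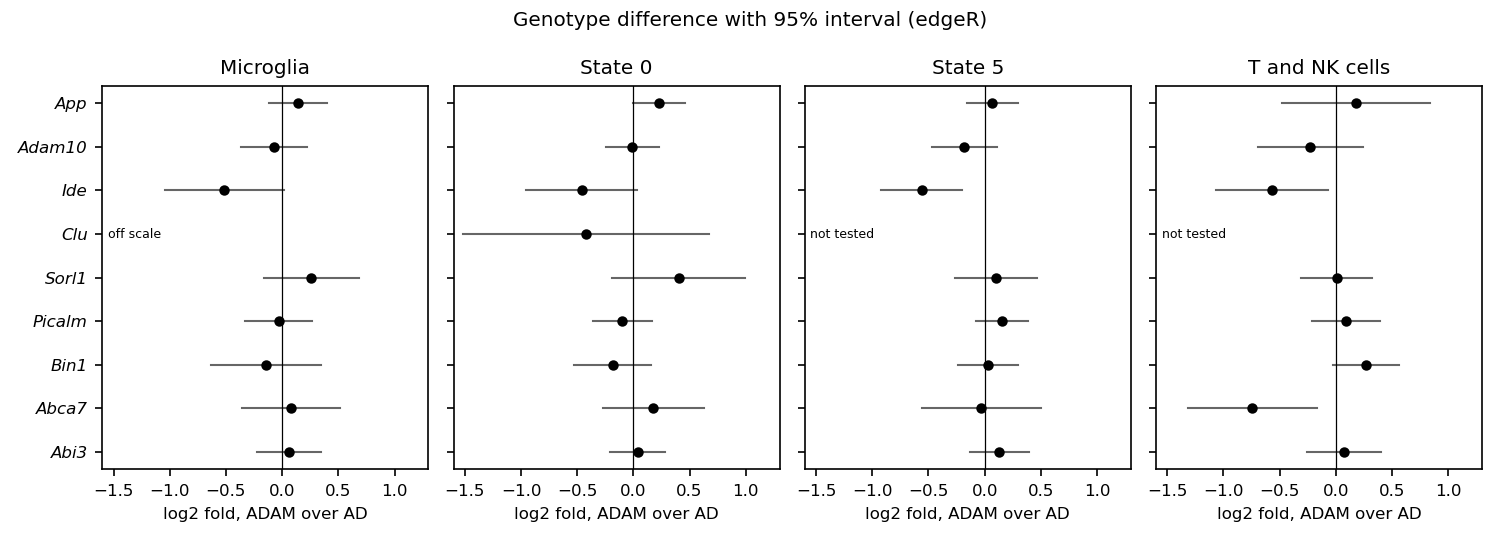
Log2 fold of ADAM over AD (points) with 95% intervals (lines) from edgeR in 4 cell sets, by gene. The intervals of 8 genes span 0 in microglia and that of Clu is off scale, while Ide in state 5 and Ide and Abca7 in T and NK cells have intervals below 0 without passing the adjusted test.

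Whether the state 5 against state 0 difference itself depended on genotype was tested by an interaction term. None of the 9 genes passed, where 113 of 11132 genes (1.02%) did. Picalm had the lowest p, with an interaction of 0.24 (SE 0.11, 95% interval 0.022 to 0.47), an unadjusted p of 0.031 and an edgeR adjusted p of 0.47, where 8.88% of genes had an unadjusted p under 0.05. In state 5 it had 238 and 214 CPM in ADAM, against 193 and 211 CPM in AD, and in state 0 432 and 387 CPM in ADAM, against 492 and 437 CPM in AD. The ADAM libraries were thus the higher ones in state 5 and the lower ones in state 0. The Bin1 interaction was 0.22 (SE 0.12), that of Adam10 −0.16 (SE 0.12), that of App −0.16 (SE 0.11) and that of Ide −0.051 (SE 0.19). Removing TMM scaling, the factor that corrects for composition, moved the split of interaction calls to 71 higher and 52 lower, where it was 29 higher and 84 lower with it.

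Genes of the same pathways were then counted in the genotype comparison. No member of the 6 lists passed in microglia, state 0 or state 5. In microglia these were 0 of 19 tested genes of the APP family and secretases, 0 of 10 of amyloid beta degradation and clearance, 0 of 24 of endocytosis and retromer, 0 of 8 of the WAVE complex to which Abi3 belongs, 0 of 5 ABCA transporters and 0 of 28 other Alzheimer risk genes. Their median log2 folds in microglia lay between −0.14 and 0.016, beside 0.0035 over all genes. Itm2b, whose product binds the amyloid precursor, had 6250.0 and 4675 CPM in ADAM 1 and ADAM 2, against 5609 and 5532 CPM in AD 1 and AD 2, a log2 fold of 0.023 (SE 0.15). Trem2, a microglial lipid receptor, had 4178 and 4555 CPM in ADAM 1 and ADAM 2, against 5518 and 4159 CPM in AD 1 and AD 2, a log2 fold of −0.094 (SE 0.17). Apoe, the lipid carrier, had 12758 and 23266 CPM in ADAM 1 and ADAM 2, against 20979 and 16599.9 CPM in AD 1 and AD 2, overlapping widely.

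Across the 8 sets a pair of list genes passed. Lpl, a lipase that binds lipoproteins, was lower in ADAM state 3, with 87.3 and 171 CPM in ADAM 1 and ADAM 2, against 306 and 483 CPM in AD 1 and AD 2. Its log2 fold was −1.63 (SE 0.30, edgeR adjusted p 0.018), against 0.313% of genes called there, and limma-voom did not call it (adjusted p 0.12). Trem2 was higher in ADAM T and NK cells, with 135 and 115 CPM in ADAM 1 and ADAM 2, against 64.3 and 76.4 CPM in AD 1 and AD 2, with a log2 fold of 0.84 and an SE of 0.14 (edgeR adjusted p 0.025). The microglia marker sum in those T and NK cells was 410.1 and 311 CPM in ADAM 1 and ADAM 2, against 256 and 276 CPM in AD 1 and AD 2, with both ADAM libraries higher, and its part in the Trem2 level was not tested. The Trem2 call was lost without AD 1 (adjusted p 0.44), AD 2 (0.083) or ADAM 1 (0.098). The 10 tested genes of amyloid beta degradation and clearance had a median log2 fold of −0.26 in state 5, −0.046 in microglia and 0.013 in state 0, beside 0.00099, 0.0035 and 0.0060 over all genes, and none was called in these sets. In microglia and in state 0, 5 of the 10 folds were negative, and in state 5, 9 were. Those of state 5 include Lpl at −0.53 (SE 0.14, adjusted p 0.30) and Ctsd, a lysosomal protease, at −0.30 (SE 0.13, adjusted p 0.85), by edgeR.

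With 2 libraries against 2, the smallest two-sided p of an exact permutation test is 0.33, so shares of microglia with a UMI can be described but not called. After thinning, Ide had a UMI in 5.46% and 2.55% of microglia of ADAM 1 and ADAM 2, against 5.71% and 6.01% in AD 1 and AD 2. T and NK cells, which themselves carry Ide, had 6.92% and 3.95% in ADAM, against 8.25% and 6.33% in AD. Bin1 had a UMI in 61.8% and 44.5% of microglia in ADAM, against 55.3% and 61.8% in AD, and in 13.3% and 14.9% of T and NK cells in ADAM, against 12.4% and 11.6% in AD. ADAM 2 was the lowest library for both genes in microglia. Clu had a UMI in 0.206% to 0.444% of thinned microglia. Most state 2 cells, with median depths of 808.5 to 886.5 UMIs, fell below 2000 UMIs and were left out of these shares. The Clu shares thus largely leave out the state that held most Clu UMIs in ADAM 2 and AD 1.

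Across the 9 cell groups with at least 20 cells per library, the levels of Adam10 and Picalm ran together with a Pearson r of 0.90, and those of Bin1 and Sorl1 ran opposite with an r of −0.82. Monocytes and T and NK cells had little Bin1 (42.0 and 67.9 CPM) and the most Sorl1 (144 and 90.8 CPM). Between states 5 and 0 of the microglia the 2 genes did not run opposite, as both were lower in state 5 in all 4 libraries. These correlations over 9 points are descriptions, since the groups share libraries and differ in depth. The genes whose pattern over the same groups was most like a member, among 7773 genes, were Sdc3 for App (r = 0.99), Acp2 for Adam10 (0.97), Itgav for Picalm (0.99), Tpbgl for Bin1 (0.99) and Ywhaz for Abca7 (0.98). Ide was most like Pcnp (0.96), Abi3 like Aup1 (0.93) and Sorl1 like Ube2d3 (0.92). Clu lay below the level needed for this comparison.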

How the data were processed

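Raw UMI counts per gene and cell were deposited by the authors, with a class, a microglia state and doublet marks per cell and the percent of UMIs on mitochondrial genes, at most 9.99%, per the file headers. The submitters' processing notes name the build mm10 and the tools Seurat 3.2.1.9002 and Cell Ranger 3.1.0, with no roles. The labels' protocols give enzymatic and mechanical digestion, a Percoll step and CD45 sorting. The table held 15451 cells, of which 14628 had a class. The 823 without one are those the authors marked as doublets, and no further caller was run. Every cell had at least 500 UMIs.

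The 9 genes and the pathway and marker lists were chosen with earlier results of these data known. Counts were summed per library and cell set, for sets with at least 20 cells in every library, and printed as CPM of that sum. ADAM was tested against AD with edgeR 4.0.16 in R 4.3.3 (TMM, filterByExpr with a minimum count of 10, robust quasi-likelihood fit on genotype, Benjamini-Hochberg over all genes tested at 0.05). The state interaction had a term per library. Set differences used log2(CPM + 1) for genes with a mean of at least 5 CPM in either set. Shares were taken after thinning each cell to 2000 UMIs, which left out 164 to 258 microglia per library. DESeq2 1.42.0, limma 3.58.1 (voom), no TMM, no filter, leaving out a library, other thinning, leaving out state 2, adding the microglia and T cell doublets, and a replicate block were tried. The scripts were tested on simulated data. Replicates differed by far more than sampling noise (chi-square over its degrees of freedom 30.7 for ADAM and 21.5 for AD). Named genes are the 9 members, list genes that passed, and the most abundant of each list, and the list genes of state 5 were named after their values were seen. The Poisson intervals of pooled small sets cover counting error only, and the edgeR intervals include the spread between libraries. Microglia state 1 had 19 cells in AD 1 and was not tested.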

Additional observations from a re-analysis of the deposited data

How the results depend on the processing

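Of 680 alternative values for the log2 folds of the 9 genes over all sets, 611 kept direction and side of the threshold, 66 changed sign and 3 passed, the 3 being Ide without ADAM 1. Counts of all genes called by DESeq2 were 17 in microglia (5 as reported), 7 in state 0 (11), 5 in state 3 (10), 3 in state 4 (5), 2 in macrophages (1) and 53 in monocytes (10). By limma-voom they were 4 in state 3, 2 in state 4, and 0 in macrophages and in monocytes, where edgeR had 143 and 550 genes at an unadjusted p under 0.05. Without TMM they were 9 in microglia and 36 in monocytes. Without the filter on low counts they were 18 in microglia, 94 in state 0, 16 in state 4, 112 in state 5, 11 in macrophages, 276 in monocytes and 107 in T and NK cells. Without state 2 cells microglia had 8. Leaving out a library in turn gave 12 to 139 calls in microglia, 6 to 174 in state 0, 11 to 20 in state 3, 15 to 33 in state 4, 30 to 141 in state 5, 4 to 130 in macrophages, 0 to 274 in monocytes, 4 to 37 in T and NK cells and 51 to 173 for the interaction, with the highest in microglia, state 0, state 5, macrophages, monocytes and the interaction without ADAM 1. The cause was not tested.

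The labels give no pairing of libraries by replicate number. The correlation of deviations over 11924 genes was −0.22 between same-numbered libraries and 0.22 between crossed ones. With 2 libraries per genotype these values mirror each other, so they cannot settle whether libraries were paired. With a replicate block the calls were 0 in microglia, 35 in state 0, 21 in state 3, 3 in state 4, 16 in state 5, 1 in macrophages, 3 in monocytes and 90 in T and NK cells. With the block crossed, an alternative chosen after seeing the data, they were 8 in microglia, 9 in macrophages, 24 in monocytes and 74 in T and NK cells. No fold of the 9 genes passed with either block.

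Among folds that changed sign, Clu in microglia was 0.45 by limma-voom, and without TMM Abi3 in state 0 was −0.044 and the Ide interaction 0.026. Leaving out libraries moved the microglial fold of Adam10 over −0.21 to 0.057, Clu −2.12 to 2.02, Picalm −0.14 to 0.066, Bin1 −0.46 to 0.11, Abca7 −0.14 to 0.28 and Abi3 −0.035 to 0.15. In state 0 the ranges were −0.063 to 0.044 for Adam10, −0.44 to 0.031 for Bin1, −0.059 to 0.33 for Abca7 and −0.023 to 0.10 for Abi3. In state 5 they were −0.16 to 0.19 for Bin1 and −0.44 to 0.26 for Abca7, and in state 3 −2.37 to 0.43 for Ide. The interactions ran over −0.18 to 0.13 for Ide, −1.05 to 0.72 for Clu and −0.56 to 0.011 for Abca7. The difference in the share of microglia with a UMI changed sign for App (−0.21 points) and Abca7 (−0.072) at 1000 UMIs and for Clu (−0.069) without thinning. Abca7, at 8.91 to 11.5 CPM in microglia, and Clu, at 1.34 to 2.48 CPM outside state 2, had few UMIs, which limits what could be detected for them.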

Other observations

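The 823 cells that the authors marked as doublets, which carry no class, were not used in any comparison. Sorl1 stood at 39.96 and 81.9 CPM in the doublets of ADAM 1 and ADAM 2, against 44.1 and 47.5 CPM in those of AD 1 and AD 2. Bin1 stood at 402 and 261 CPM in ADAM, against 348 and 429 CPM in AD. Ide stood at 26.2 and 16.9 CPM in ADAM, against 44.8 and 26.6 CPM in AD, with ADAM 2 again the lowest library. In the 209 microglia and T cell doublets of AD 1, App stood at 103 CPM and Bin1 at 310 CPM, at a median of 812 UMIs per cell.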
